A study of Mus musculus with 8 samples.

Results

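The 4 arrays of mouse MLL-AF9 leukemic cells in EPZ4777 were set against each other here: those with the codes D11 and A5, on which the neutrophil granule genes Ltf and Mmp9 were high, against those with the codes A4 and A1, on which both were low. These 4 arrays are 4 of the 8 in the series, and each side held 1 array of each hairpin label. D11 and A4 were shLUC cells, which carry a hairpin against luciferase with no mouse target, after 6 days in 3 µM EPZ4777, and A5 and A1 were labelled shSirt1 (a hairpin against the deacetylase gene Sirt1) after 21 days in 3 µM EPZ4777. The other 4 arrays were the same codes in DMSO, the solvent, for which the labels give no time. EPZ4777 inhibits DOT1L, the enzyme that methylates lysine 79 of histone H3. All cells, those in DMSO too, carried MLL-AF9, in which the chromatin regulator MLL is fused to AF9, and grew with serum, SCF, IL-3 and IL-6. What the codes stand for is not labelled, nor whether each array had its own culture, and p-values therefore measure no more than the spread between these samples.

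Neutrophils mature through promyelocytes, which fill primary (azurophil) granules with myeloperoxidase and serine proteases, and myelocytes and metamyelocytes, which fill secondary (specific) granules with proteins such as lactoferrin. Band and segmented cells then add tertiary (gelatinase) granules and the receptors of the mature cell, and shut down ribosome production. In leukemia with an MLL fusion this program is held at an early step, and DOT1L is recruited by fusion partners such as AF9 to genes such as Meis1 and the Hoxa cluster.

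Every level below is a log2 intensity from the authors' RMA values, with 1 probe set for each of 18193 genes, and a difference of 1 is a doubling. The median over probe sets lay between 5.21 and 5.27 on the 8 arrays, and values near 4 or lower are at the dim end. The number of arrays, 8, limits the precision. Sirt1, which checks the hairpin label, was at 9.83 on D11, 9.73 on A5, 9.44 on A4 and 8.85 on A1 in EPZ4777, and at 9.58, 9.54, 9.46 and 8.70 in DMSO in the same order. It was low on the A1 arrays alone, so A5 and A1 are called cells labelled shSirt1, and in that arm the side and the level of Sirt1 cannot be told apart. Dot1l lay between 7.59 and 7.86 on the 8 arrays. The A1 array in DMSO stood apart by the stroma markers Col1a1, Col3a1 and Dcn. Their summed intensity was 294 there and 46 to 53 on the other 7 arrays. Counts by direction and medians of the following genes in DMSO are therefore also given by arm. The limma results in DMSO hold both arms and are not given without A1.

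The sides were chosen by Ltf, the iron-binding lactoferrin of secondary granules, and Mmp9, gelatinase B of tertiary granules, so the values of these genes and every difference between the sides in EPZ4777 describe the choice and were not tested. In EPZ4777 Ltf was at 11.27 on D11 and 12.15 on A5, against 7.26 on A4 and 8.10 on A1. Mmp9 was at 10.21 on D11 and 10.05 on A5, against 6.22 on A4 and 5.71 on A1. The differences were 4.01 (D11 minus A4) and 4.05 (A5 minus A1) for Ltf and 3.99 and 4.34 for Mmp9. Both weak arrays were still above their own DMSO arrays: in DMSO Ltf was at 6.92, 6.93, 6.33 and 4.54 on D11, A5, A4 and A1, and Mmp9 at 6.46, 5.83, 5.53 and 5.11. The label of strong and weak maturation was set beside the 8 measured neutrophil markers other than Ltf and Mmp9, on the same arrays. Their summed intensity was 97342 on D11 and 97975 on A5, against 59601 on A4 and 60542 on A1, and between 11394 and 34757 on the DMSO arrays. The 4 promyelocyte markers Mpo, Elane, Prtn3 and Ctsg summed to 37374 on D11 and 35304 on A5, against 45831 on A4 and 46194 on A1. In DMSO these 4 summed to 40288 on D11 and 42318 on A5, against 44721 on A4 and 45678 on A1. All 8 neutrophil markers were higher in both arms in EPZ4777. Among them S100a8 differed by only 0.16 and 0.082, and Mmp8 was at 10.72 on A5, below A4 at 10.94. The sums in EPZ4777 went the way the label says, which describes the arrays that set it and is no test of it. In such bulk samples fewer cells of a type and less RNA per cell cannot be told apart.

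A gene was said to follow the split where it differed by at least 1 in the same direction in both hairpin arms. Of 18193 genes 81 followed upward (0.445%), being higher on D11 than on A4 and on A5 than on A1, and 32 followed downward (0.176%). With a gene's probe sets averaged 67 and 16 followed, 63 and 15 of them shared with the 81 and the 32. At this threshold 214 genes were higher and 74 lower on D11 than on A4, and 196 higher and 226 lower on A5 than on A1. The rule of choice makes these counts a description, and nothing is read from them. Both strong arrays lay beyond both weak arrays for 77 of the 81 and 28 of the 32, where over all genes 15.6% had D11 and A5 both above A4 and A1 and 19.9% both below. Over all genes the differences of the 2 arms correlated at 0.401 (Pearson, over 18193 genes, which are not independent replicates). In all 27 of the 113 genes stand on 1 or more of the 30 gene lists used here, and 86 stand on none. By the highest mean probe set 65 of the 81 and 25 of the 32 were brighter than the median gene.

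**Figure D1:**
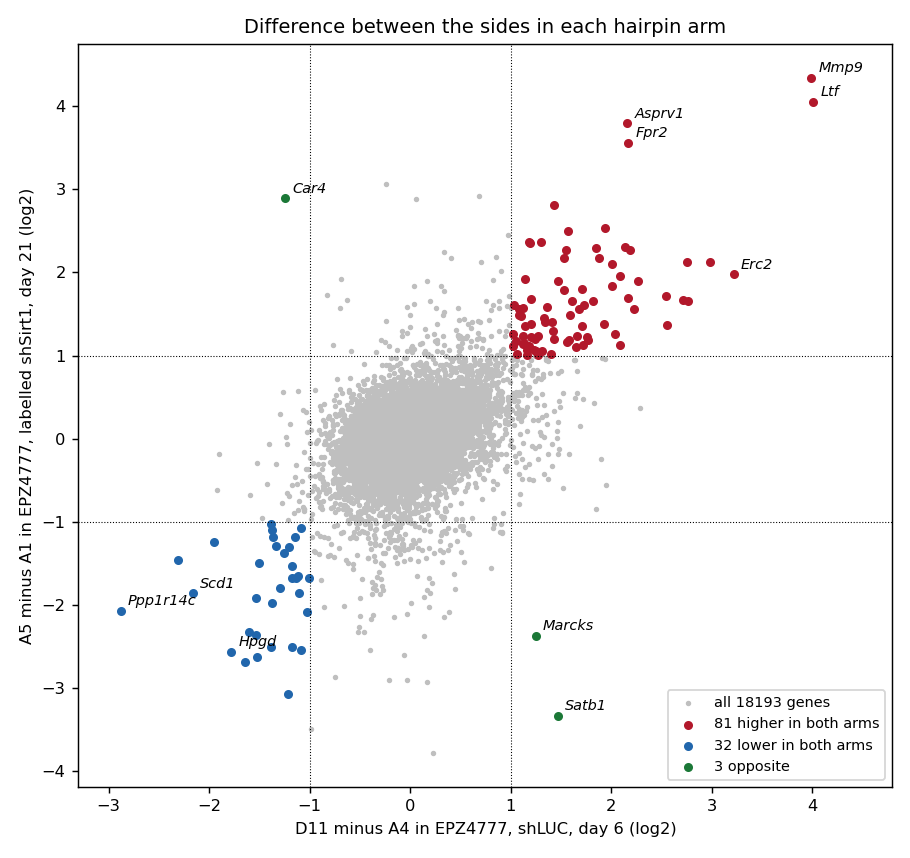
Each point is a gene: the horizontal axis is D11 minus A4 and the vertical axis A5 minus A1, both in EPZ4777 and in log2 intensity, with dotted lines at a difference of 1 either way. By the smaller of both differences Ltf (4.01 and 4.05) leads the 81 genes higher in both arms (red) and Ppp1r14c (-2.88 and -2.07) the 32 lower in both (blue), and 3 genes (green) went past 1 in opposite directions.

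Secondary granules had the largest share of following genes among the lists. Of 20 measured members 12 followed upward and 0 downward, and 19 were higher in both arms. Of all genes 24.8% were higher and 32.6% lower in both arms. Ltf, which chose the sides, is among the 12 and the 19. These counts describe the arrays that the rule used. The median difference of the list was 1.35 for D11 minus A4 and 1.22 for A5 minus A1, against -0.061 and 0.0087 over all genes. Camp, the precursor of the antimicrobial peptide cathelicidin, was at 13.47 on D11 and 14.09 on A5, against 11.76 on A4 and 12.29 on A1. Pglyrp1, which binds bacterial peptidoglycan, was at 10.23 on D11 and 10.89 on A5, against 8.30 on A4 and 8.36 on A1. Both genes separated the sides in both arms, by 1.71 and 1.80 for Camp and by 1.94 and 2.53 for Pglyrp1. Itgb2l, an integrin beta chain of neutrophils, was at 9.11 and 9.32 on D11 and A5, against 7.24 and 7.15 on A4 and A1, although only 1 of its 3 probe sets was higher in both arms and its mean difference of both arms was 2.02, against 0.62 with its probe sets averaged. Ceacam10, an adhesion molecule of the CEA family, was at 12.31 and 12.04, against 9.59 and 10.38. Stfa3, a stefin that inhibits cysteine proteases, was at 13.17 and 13.46, against 11.24 and 12.08. For each of these 5 genes both strong arrays lay above both weak ones. The members with the smallest separation, named after their values were seen, were Orm1, an acute phase protein (0.053 and -0.87), and Olfm4 (0.16 and 0.88), a protein of a subset of secondary granules.

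The promoters of the 4 secondary granule genes with the largest separation that the promoter table holds are printed because these genes followed the split together. Each run is the 250 bases before the start of the gene (RefSeq, GRCm38.p6), 5′ to 3′ on the gene's strand, with capitals on matches to TTGCNNAA, a C/EBP-type motif, and to GAGGAA, the core bound by PU.1, each searched on both strands. Ltf lies at chr9:111019042-111019291, plus strand, Pglyrp1 at chr7:18884440-18884689, plus strand, Itgb2l at chr16:96443615-96443864, minus strand and Camp at chr9:109849457-109849706, minus strand.
Ltf: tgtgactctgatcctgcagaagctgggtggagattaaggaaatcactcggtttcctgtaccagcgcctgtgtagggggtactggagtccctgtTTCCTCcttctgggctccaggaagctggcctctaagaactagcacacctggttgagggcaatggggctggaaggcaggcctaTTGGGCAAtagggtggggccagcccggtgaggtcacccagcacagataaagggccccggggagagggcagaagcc
Pglyrp1: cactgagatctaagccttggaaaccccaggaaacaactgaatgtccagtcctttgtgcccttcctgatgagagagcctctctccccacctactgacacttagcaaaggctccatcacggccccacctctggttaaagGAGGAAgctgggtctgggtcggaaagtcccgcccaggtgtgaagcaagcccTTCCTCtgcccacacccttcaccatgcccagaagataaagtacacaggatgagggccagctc
Itgb2l: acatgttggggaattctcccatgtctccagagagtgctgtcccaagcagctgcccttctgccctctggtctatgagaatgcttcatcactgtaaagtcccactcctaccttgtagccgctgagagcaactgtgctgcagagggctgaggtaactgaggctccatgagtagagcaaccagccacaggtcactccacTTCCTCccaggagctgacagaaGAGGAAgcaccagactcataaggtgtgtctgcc
Camp: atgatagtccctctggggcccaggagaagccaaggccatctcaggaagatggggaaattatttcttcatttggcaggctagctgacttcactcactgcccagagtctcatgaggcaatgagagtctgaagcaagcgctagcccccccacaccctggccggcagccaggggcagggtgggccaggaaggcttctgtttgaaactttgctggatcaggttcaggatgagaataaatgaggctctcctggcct
The Ltf window held 1 match to each motif, 75 and 157 bases before the start for TTGCNNAA and GAGGAA. Pglyrp1 and Itgb2l held 2 matches each to GAGGAA and 0 to TTGCNNAA, and Camp held 0 of both. No matches overlapped in these windows. Of the 81 genes that follow upward 71 had a promoter in the table and of the 32 that follow downward 25. TTGCNNAA stood in 15.5% of the 71 and 20.0% of the 25, against 10.8% of the 27025 genes of the table. GAGGAA stood in 39.4% and 40.0%, against 25.9%. TGAGTCA, the AP-1 motif, stood in 11.3% and 8.0%, against 5.16%, and AAACCACA, a RUNX motif, in 1.41% and 0.0%, against 1.78%. The 27025 genes were not limited to those measured on the arrays, and the shares were not tested. A match describes these letters and not a bound site.

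Some genes of tertiary granules, receptors and the oxidase followed as well, but the lists overlap. Cybb and Ltb4r1, given below, are also among the following secondary granule genes, and Mmp9 chose the sides. Of 17 measured genes of tertiary granules and secretory vesicles 3 followed upward and 0 downward, and 12 were higher and 2 lower in both arms, with medians of 0.62 and 0.54 (D11 minus A4 and A5 minus A1). They were Mmp9, Fpr2 and Timp2. Fpr2, a receptor for formylated bacterial peptides, was at 10.17 on D11 and 9.53 on A5, against 8.0 on A4 and 5.98 on A1. Timp2, an inhibitor of matrix metalloproteinases, was at 10.99 and 10.30, against 9.89 and 8.82. Itgam, the integrin chain CD11b, fell just short in 1 arm, with 1.02 and 0.87. Of 28 neutrophil receptors and adhesion molecules 3 followed upward, 0 downward, and 22 were higher and 2 lower in both arms (medians 0.64 and 0.54). The 3 were Fpr2, Pirb, an inhibitory immunoglobulin-like receptor, and Ltb4r1, the high-affinity receptor for leukotriene B4, which was at 11.19 and 11.34 on D11 and A5, against 10.07 and 10.10 on A4 and A1. The decoy receptor gene Il1r2 differed by 0.98 and 1.37. Of 14 genes of the phagocyte oxidase and antimicrobial enzymes 2 followed, both upward, and 10 were higher and 2 lower in both arms (medians 0.58 and 0.53). Cybb, the catalytic subunit of the NADPH oxidase, was at 12.50 on D11 and 11.99 on A5, against 11.06 on A4 and 9.18 on A1. Padi4, which citrullinates histones in neutrophil extracellular traps, was at 9.76 and 9.17, against 7.21 and 7.45. Among the other members of that list the lipoxygenase Alox5 differed by 1.35 and 0.97 and the oxidase subunit Ncf4 by 0.79 and 0.94. The 2 lower members, named after their values were seen, were the cyclooxygenase Ptgs2 (-0.60 and -0.90) and Acod1, which makes itaconate (-0.046 and -0.027).

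**Figure D2:**
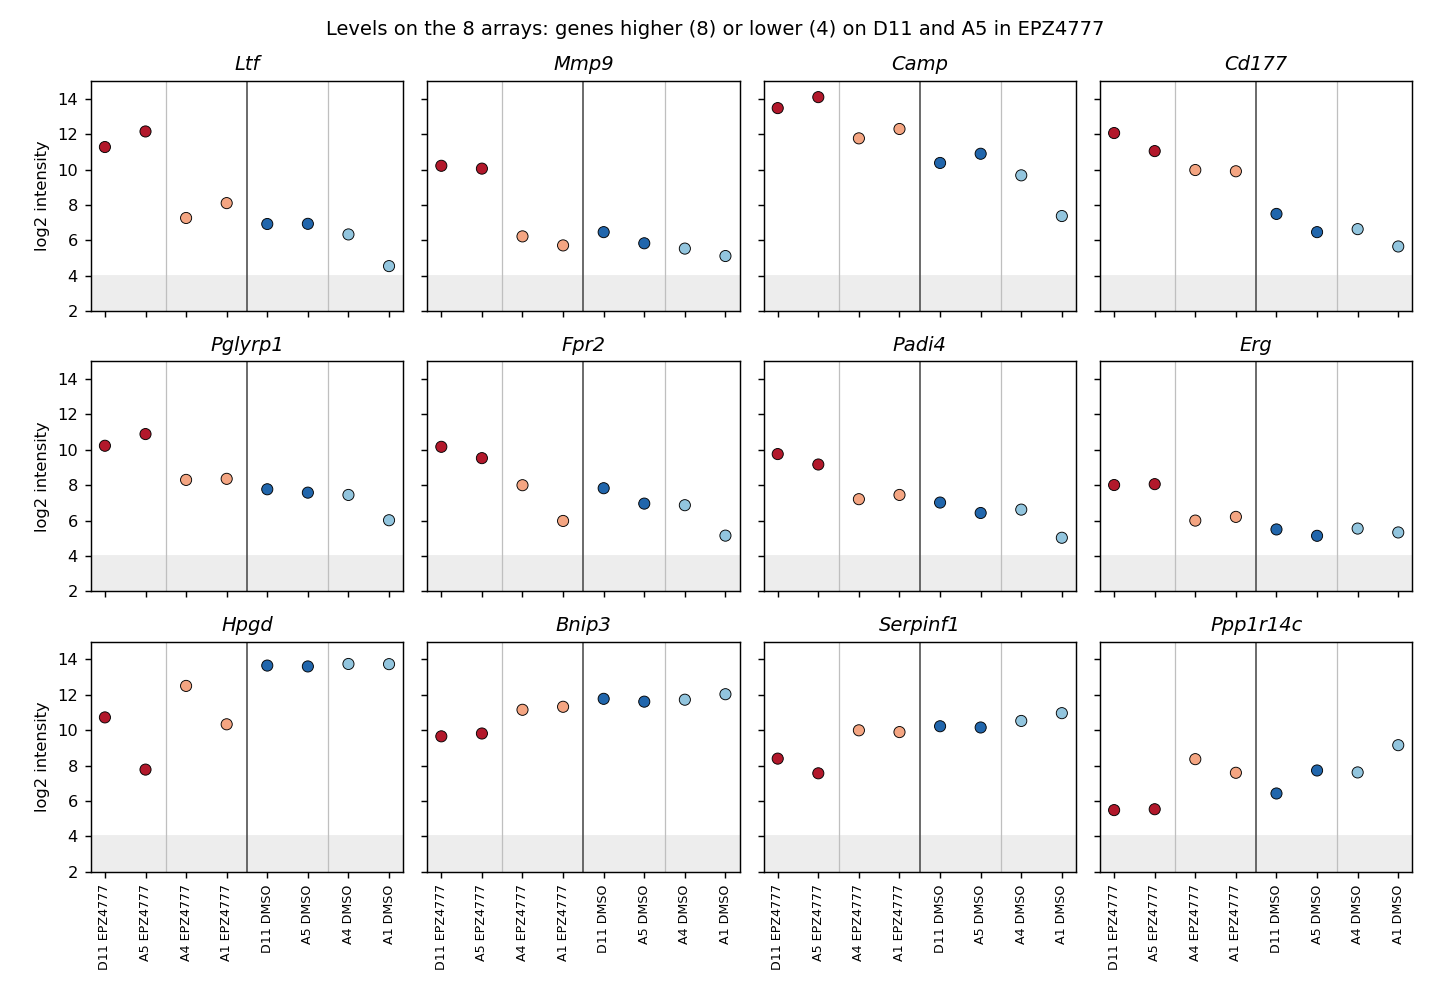
Log2 intensity of 12 genes on the 8 arrays, D11 and A5 in EPZ4777 (dark red) first, then A4 and A1 in EPZ4777 (light orange), D11 and A5 in DMSO (dark blue) and A4 and A1 in DMSO (light blue), with a grey band at 4 or lower. In the upper 8 panels both dark red points lie above both light orange ones, and in the lower row Hpgd alone has red and orange points that overlap, since A1 at 10.33 lies under D11 at 10.72.

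Other genes with large separations do not stand on the granule lists. Asprv1, an aspartic protease, was at 10.60 on D11 and 10.15 on A5, against 8.44 on A4 and 6.36 on A1. Chil1, a chitinase-like glycoprotein, was at 10.19 and 10.04, against 7.92 and 8.16. Erc2, known as a scaffold of the presynaptic active zone, was at 7.97 and 8.32, against 4.75 and 6.34, so its separation was 3.22 in the shLUC arm and 1.98 in the other. All 3 had their strong arrays above their weak arrays. Pram1, an adaptor protein of neutrophil signalling, differed by 2.01 and 2.10, Plbd1, a phospholipase B-like protein, by 2.14 and 2.30, Ankrd22 by 2.98 and 2.13 and Ppp1r42 by 2.19 and 2.27. With probe sets averaged the mean difference of both arms was 1.36 in place of 2.56 for Ankrd22 and 0.80 in place of 2.23 for Ppp1r42. Lyve1, a hyaluronan receptor known from lymphatic endothelium, was at 5.82 on D11 and 6.85 on A5, against 3.97 on A4 and 4.57 on A1, near the dim end on the weak arrays. Its mean difference of both arms was 1.46 in place of 2.07 with probe sets averaged. Erg, an ETS transcription factor of stem cells and megakaryocytes, was the 1 following member of the 23 stem and progenitor genes and went against the list, whose medians were -0.23 and -0.13. It was at 8.01 on D11 and 8.06 on A5, against 6.00 on A4 and 6.21 on A1, and between 5.14 and 5.55 on the DMSO arrays, and its mean difference of both arms was 1.25 in place of 1.93 with probe sets averaged. Slc2a3, the glucose transporter GLUT3, was at 11.54 and 11.52, against 9.5 and 10.26, and Arg2, the mitochondrial arginase, at 8.98 and 7.94, against 6.76 and 6.38.

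Primary granule genes did not follow. Of 12 measured members 0 followed in either direction, 1 was higher in both arms (Serpinb1a, an inhibitor of neutrophil serine proteases, 0.24 and 0.36) and 6 were lower in both, with medians of -0.13 and -0.30. Mpo, myeloperoxidase, was at 12.75 on D11 and 13.15 on A5, against 13.26 on A4 and 13.56 on A1. Cst7, an inhibitor of cathepsins, had the largest separation of the list, at 10.76 and 9.78, against 11.59 and 11.19. Elane, neutrophil elastase, named after its values were seen, differed by -0.59 in the shLUC arm and by 0.004 in the other. Among 32 transcription factors of granulocytes and monocytes 1 followed, the repressor Bcl6, at 7.59 and 6.97 on D11 and A5, against 6.47 and 5.40 on A4 and A1, with 1 of its 2 probe sets higher in both arms. Spi1, which encodes PU.1, differed by 0.54 and 0.83, Mxd1, a partner of MAX that opposes MYC, by 1.21 and 0.78, and Id2, an inhibitor of helix-loop-helix factors, by 0.94 and 1.0. Gfi1, a repressor needed for neutrophils, differed by -0.054 and -0.062, Cebpa, which starts granulocyte development, by -0.26 and -0.61, and Irf8, a factor of monocytes and dendritic cells, by -0.55 and -0.97. Myc was at 10.81 on D11 and 10.61 on A5, against 11.25 on A4 and 10.83 on A1. Cebpe was not analysed here.

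The 32 genes that were lower on D11 and A5 had no single leading list: the lists held 4 of them, 1 each in glycolysis and hypoxia (Bnip3), cholesterol and fatty acid synthesis (Scd1), the ATF4 and unfolded protein response (Vldlr) and the interferon response (Gbp3, a guanylate-binding protein). Ppp1r14c, an inhibitor of protein phosphatase 1, was at 5.48 on D11 and 5.53 on A5, against 8.36 on A4 and 7.59 on A1. Bnip3, a hypoxia-induced receptor of mitophagy, was at 9.65 and 9.81, against 11.15 and 11.32, which is a difference of -1.50 in each arm. Serpinf1, the secreted factor PEDF, was at 8.39 and 7.56, against 9.99 and 9.89. In these 3 genes both strong arrays lay below both weak ones. Scd1, stearoyl-CoA desaturase, was at 7.13 and 5.45, against 9.30 and 7.31. Its separation of -2.16 and -1.86 was not shared by the 21 members of its list, whose medians were 0.047 and -0.53. Hpgd, which inactivates prostaglandin E2, was at 10.72 and 7.77, against 12.50 and 10.33. Vldlr, a lipoprotein receptor, was at 4.87 and 4.66, against 6.52 and 7.34. The endoplasmic reticulum protein genes Txndc5 and Rcn1 differed by -1.25 and -1.37 and by -1.52 and -2.62, and the receptor gene S1pr3 for sphingosine-1-phosphate by -1.53 and -2.36. With probe sets averaged the mean difference of both arms was -0.89 in place of -1.94 for S1pr3, -1.12 in place of -2.07 for Rcn1 and -1.23 in place of -2.17 for Vldlr.

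Small shifts in one direction ran through some lists. Over all genes 24.8% were higher and 32.6% lower in both arms, with medians of -0.061 (D11 minus A4) and 0.0087 (A5 minus A1). The counts by list describe the arrays that the rule used and were not tested. Of 29 genes of MYC targets and ribosome biogenesis 0 followed at the threshold, 0 were higher and 27 were lower in both arms, with medians of -0.37 and -0.23. Odc1, the first enzyme of polyamine synthesis, was at 11.37 on D11 and 12.08 on A5, against 11.75 on A4 and 12.40 on A1. That gene shows how the hairpin arms overlap, since A5 lay above A4. Of 22 genes of glycolysis and hypoxia 16 were lower and 4 higher in both arms (medians -0.31 and -0.36). Pfkp, a phosphofructokinase, differed by -1.06 and -0.82 and Pdk1, which inhibits pyruvate dehydrogenase, by -1.22 and -0.65, while Pfkfb4, a regulator of glycolytic flux, differed by 1.12 and 0.67. On the list for ATF4 and protein folding stress 18 of 24 were lower and 0 higher (medians -0.34 and -0.29), among them Phgdh, the first enzyme of serine synthesis (-0.62 and -0.66). Of 28 genes of mitochondrial respiration 20 were lower and 0 higher (medians -0.12 and -0.095). Mitosis genes went the other way by little, with 21 of 29 higher and 2 lower (medians 0.17 and 0.19). Mki67, the proliferation antigen Ki-67, was at 12.51 and 12.53 on D11 and A5, against 12.24 and 12.24 on A4 and A1. The DNA replication list had 10 of 30 higher and 10 lower in both arms. Among the remaining lists, Il1rn, the interleukin-1 receptor antagonist, followed upward of 29 genes of NF-kB and inflammation, and Ifitm6 of 26 interferon genes. Anxa1, annexin A1, followed upward of 12 S100 and annexin genes and is also among the following secondary granule genes. Of 22 lysosome genes and 20 growth factor receptors 0 followed, with medians of 0.21 and 0.088 and of 0.31 and 0.18.

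Targets of MLL-AF9 did not follow the split. Of 26 measured members 0 followed, 10 were higher and 11 lower in both arms, with medians of -0.042 and -0.0086. Meis1, a HOX cofactor, was at 3.62 on D11 and 3.93 on A5, against 4.01 on A4 and 5.26 on A1 in EPZ4777, all but A1 at the dim end, and at 7.93, 6.91, 7.62 and 7.64 in DMSO. Hoxa9 was at 12.48 and 12.63, against 12.30 and 12.17. Hoxa5 was the member with the largest separation, 1.64 and 0.94, followed by Hoxa11 with 0.49 and 1.43. Hoxa10 (0.48 and 0.59) and Hoxa7 (0.47 and 0.62) were also higher on the strong side in both arms.

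**Figure D3:**
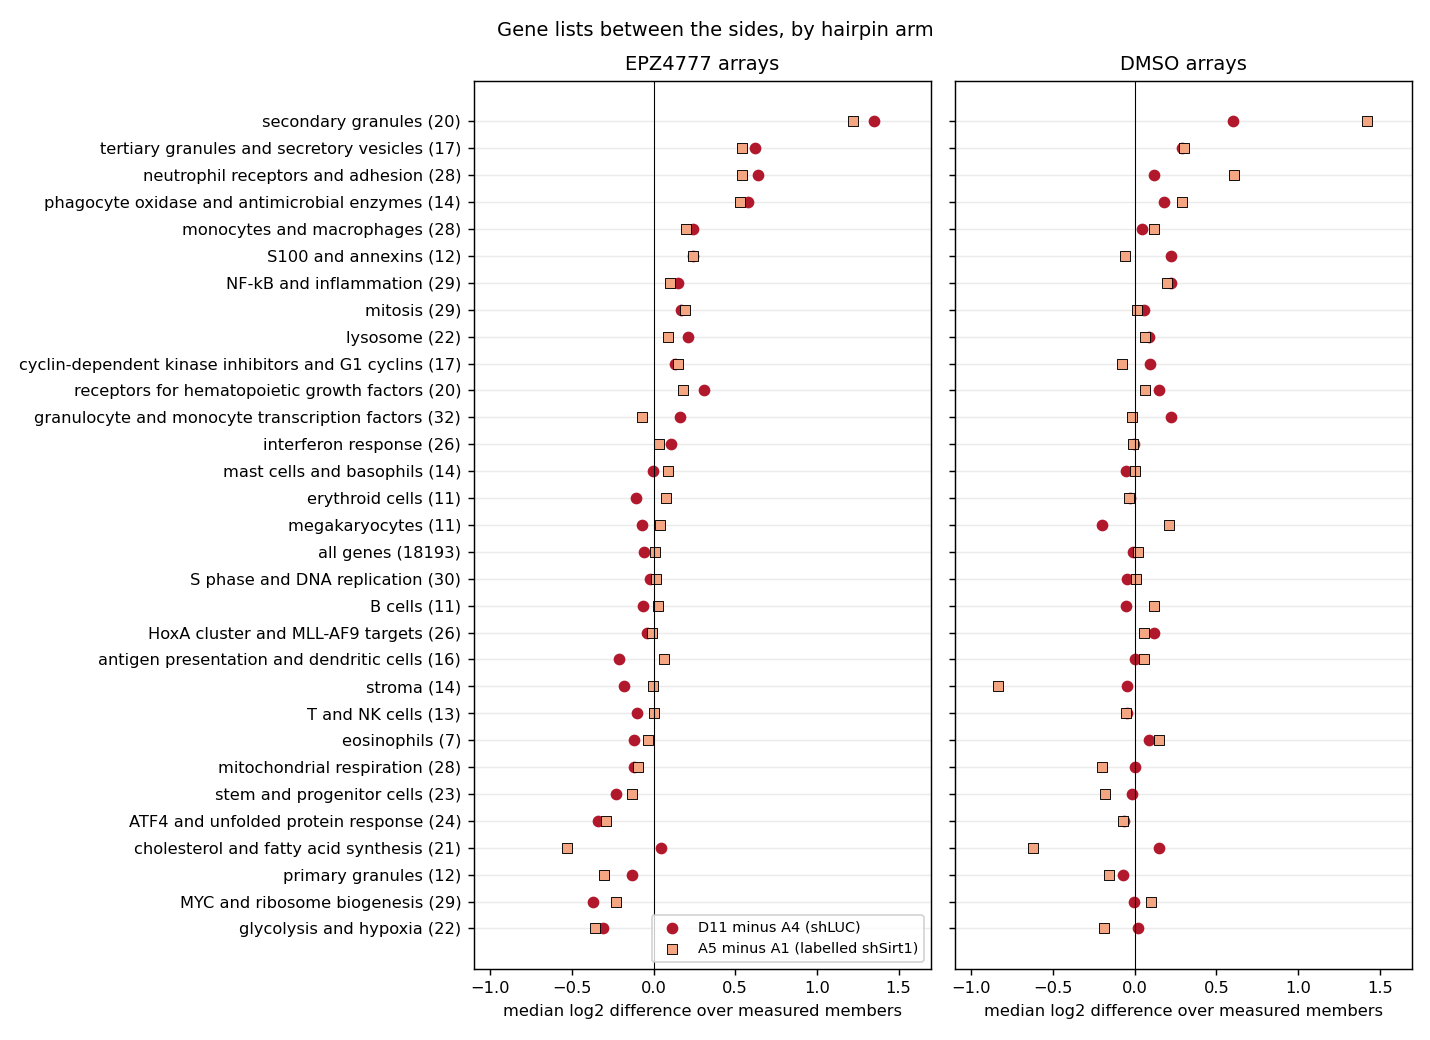
Median log2 difference over the measured members of each list (number in brackets) for D11 minus A4 (circles) and A5 minus A1 (squares), in EPZ4777 on the left and in DMSO on the right. In EPZ4777 secondary granules lie farthest right at 1.35 and 1.22, and in DMSO they lie at 0.60 and 1.42, while stroma lies at -0.84 for A5 minus A1 in DMSO.

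Markers of other cells were read beside these results. The 8 markers of monocytes and macrophages summed to 4323 on D11 and 701 on A5, against 3510 on A4 and 619 on A1, so they went with the hairpin label and time more than with the side. Mrc1, the mannose receptor of macrophages, followed upward at 9.80 and 6.39, against 8.62 and 4.04, with A4 above A5. Stroma markers summed to 53, 52, 52 and 52 on D11, A5, A4 and A1 in EPZ4777. Markers of T and NK cells (80, 83, 85 and 90), B cells (36, 52, 43 and 43) and erythroid cells (66, 79, 82 and 83) stayed in a narrow low range. Eosinophil markers summed to 175 and 142, against 128 and 73, with 2 of 3 at or below 4 on every array. Megakaryocyte markers summed to 830 and 492, against 1039 and 419, and those of mast cells and basophils to 334 and 292, against 292 and 460. The part of these cells in the split was not tested.

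The DMSO arrays were not used to choose the sides, and there the same codes were compared, D11 and A5 against A4 and A1. Of the 81 genes that followed upward 61 were higher in both arms in DMSO too, where 26.1% of all genes were. The shLUC arm, which leaves out the A1 array, had 73 of the 81 higher on D11 than on A4 (47.6% of all genes), and the other arm 64 higher on A5 than on A1 (53.8% of all genes). Median differences of the 81 were 0.36 for D11 minus A4 and 0.75 for A5 minus A1, against -0.0086 and 0.021 over all genes. Of the 32 genes that followed downward 18 were lower in both arms (24.4% of all genes), 18 on D11 than on A4 (52.2%) and 32 on A5 than on A1 (46.0%), with medians of -0.041 and -0.79. In shLUC cells the genes that followed downward were thus about evenly split in DMSO, and all were lower in the arm that holds the A1 array that stood apart. The part of that array's stroma markers in these values was not tested. At least 1 higher in both arms were 3 of the 81 (0.044% of all genes): Stfa3, Stfa2l1 and Ifitm6. At least 1 lower in both was 1 of the 32 (0.0055%), Ppp1r14c.

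By limma, fitted over all genes of the 4 DMSO arrays with the hairpin label as a covariate, 0 genes passed a Benjamini-Hochberg adjusted p under 0.05 (0.0%). The fit has 1 residual degree of freedom, and the smallest adjusted p was 0.964, so no gene is called different between the sides in DMSO. At an unadjusted p under 0.05 stood 751 genes, fewer than that limit passes on average where no gene differs. Genes are not independent replicates, so the counts of members among the 751 are a description. With 1 DMSO array left out, those that remain leave no spread of their own. The spread then comes from the 4 EPZ4777 arrays, which chose the sides, so nothing is read from those fits. Of the 81 genes 43 were among the 751 in the same direction (2.39% of all genes were higher at that limit) and 1 in the other, and of the 32 genes 12 were among the 751 in the same direction (1.74% of all genes were lower) and 0 in the other. Stfa3 was at 10.08 on D11 and 9.78 on A5, against 8.44 on A4 and 6.77 on A1 in DMSO. Ifitm6, an interferon-induced transmembrane protein, was at 8.34 and 7.58, against 7.05 and 5.38. Both thus had D11 and A5 above A4 and A1 in DMSO, with 2.33 ± 0.35 and 1.74 ± 0.25 (mean difference of both arms ± standard error, limma adjusted p = 0.964 each). Ppp1r14c was at 6.42 and 7.72, against 7.61 and 9.15 (-1.30 ± 0.13, limma adjusted p = 0.964), with A5 above A4. Camp was at 10.37 and 10.89, against 9.67 and 7.37, and most of its difference lay in the A5 and A1 arm (3.51, against 0.70 in shLUC cells). Erg, by contrast, was at 5.5 and 5.14, against 5.55 and 5.33, and Hpgd at 13.65 and 13.60, against 13.74 and 13.73, so these genes lay within 0.18 between the sides in DMSO; whether the separation differs between EPZ4777 and DMSO was not tested. The secondary granule list had 16 of 20 members higher in both arms in DMSO, with medians of 0.60 and 1.42.

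**Figure D4:**
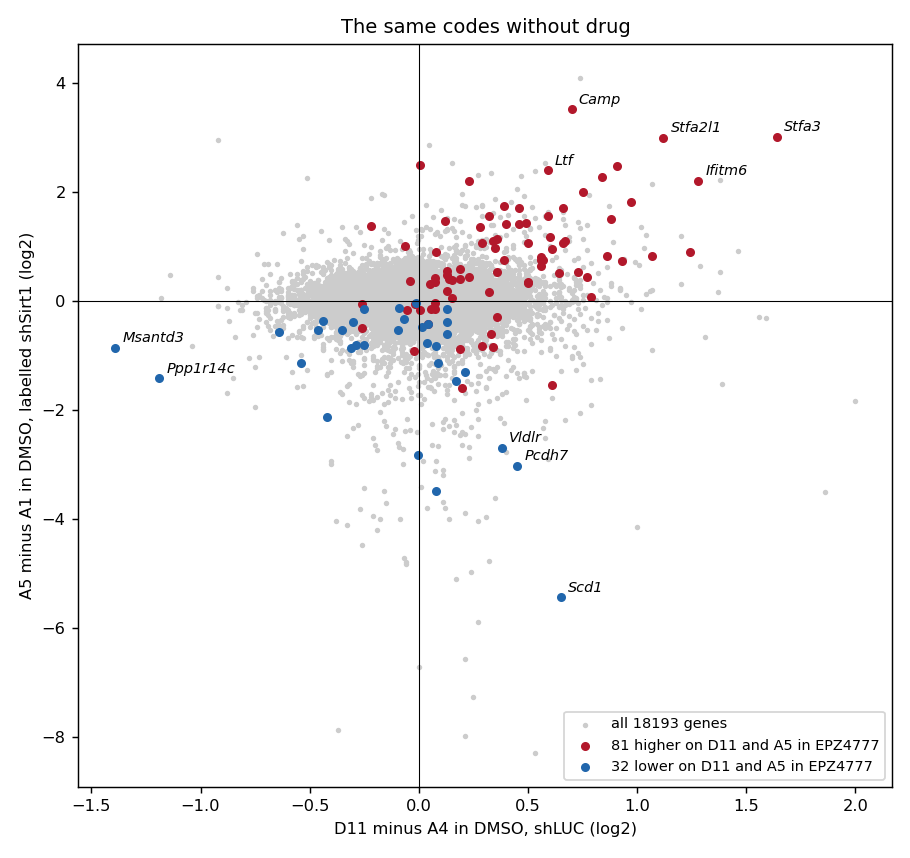
Each point is a gene: the horizontal axis is D11 minus A4 and the vertical axis A5 minus A1, both in DMSO and in log2 intensity. Of the 81 genes higher on D11 and A5 in EPZ4777 (red) 61 lie above 0 on both axes, and the 32 lower ones (blue) all lie below 0 on the vertical axis, with 18 of them left of 0 on the horizontal axis; Scd1 lies lowest of these at -5.44.

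EPZ4777 was then compared with DMSO over both hairpin arms, to ask whether the genes that follow the split also changed with the drug; the EPZ4777 values that chose the members enter this test, so its counts over the members describe them and nothing is read from the share beside them. Among the 81 genes 42 rose and 0 fell (4.88% of all 18193 genes rose), and of the 32 genes 0 rose and 5 fell (6.0% fell). Cd177, a surface protein of neutrophils, was at 12.06 on D11, 11.04 on A5, 9.97 on A4 and 9.90 on A1 in EPZ4777, against 7.49, 6.46, 6.63 and 5.65 in DMSO, a rise of 4.18 ± 0.51 (limma adjusted p = 0.0119). Each EPZ4777 array was above each DMSO array. Ceacam10 rose by 4.64 ± 0.73 (limma adjusted p = 0.0177), Arg2 by 3.72 ± 0.59 (0.0181) and Stfa3 by 3.72 ± 0.79 (0.0334). Camp rose by 3.32 ± 0.83 (0.0480), Chil1 by 2.56 ± 0.59 (0.0397) and Slc2a3 by 2.12 (0.0355). Glra3, a glycine receptor subunit, was at 6.06, 4.25, 7.19 and 5.93 in EPZ4777, against 9.90, 9.38, 9.77 and 9.77 in DMSO, and fell by 3.84 (0.00867). Only 1 of the 2 probe sets of Glra3 was lower on the strong side in both arms. With its probe sets averaged the mean difference between the sides in EPZ4777 was -0.81 in place of -1.4. Hpgd fell by 3.35 (0.0224) and Txndc5 by 2.22 (0.0185). By list, 14 of 20 secondary granule genes, 5 of 17 of tertiary granules, 4 of 12 of primary granules and 11 of 28 receptors rose with 0 falling, and 22 of 29 genes of MYC targets and ribosome biogenesis fell with 0 rising. Of 26 targets of MLL-AF9 8 fell and 2 rose. The spread of a gene that follows holds the split itself, and Ltf and Mmp9, which chose the sides, are given no test. With the code as a replicate block, 63 of the 81 rose (7.49% of all genes) and 14 of the 32 fell (8.59% of all genes), and 2925 genes were called in place of 1979. The counts rest on single arrays: over all genes 2 were called without D11 and 6 without A4 in DMSO, and 0 of the 81 passed without D11 or without A4 in DMSO, 3 without A5 and 8 without D11 in EPZ4777, 10 without A1 and 25 without A5 in DMSO, and of the 32 genes between 0 and 12 fell in these and the other settings with 1 array left out. Without A4 or A1 in EPZ4777, 55 and 57 of the 81 passed, and without A1 in DMSO 1 of the 32 rose.

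The difference from DMSO was also taken within each code. Its median over the 81 genes was 2.33 on D11 and 2.66 on A5, against 1.11 on A4 and 1.57 on A1 (EPZ4777 minus DMSO of the same code), and 70 of the 81 were higher in EPZ4777 in all 4 codes, as 18.7% of all genes were. Over the 32 genes it was -1.39 on D11 and -1.72 on A5, against -0.15 on A4 and -1.04 on A1, and 17 were lower in EPZ4777 in all 4 codes (19.6% of all genes). The weak side thus differed from DMSO in the same direction as the strong side for most of the 81 genes. These genes were chosen as lower on A4 and A1 in EPZ4777, which makes their change there smaller. The median change of the 20 secondary granule genes was 2.53 on D11 and 3.24 on A5, against 1.7 on A4 and 2.69 on A1. On that list A1 thus lay above D11. On A4 the 32 genes went both ways, with 13 higher and 19 lower in EPZ4777 and values between -2.58 (Glra3) and 1.77 (Thy1, named after its values were seen). Median levels of the 81 were 9.52 on D11, 9.17 on A5, 7.90 on A4 and 7.44 on A1 in EPZ4777, against 7.02, 6.47, 6.46 and 5.49 in DMSO. When each EPZ4777 array was taken relative to the DMSO array of its code, an alternative added after the data were seen, 34 genes were higher by 1 in both arms, 26 of them among the 81, and 24 lower, 12 of them among the 32. The difference between codes shares its EPZ4777 arrays with the rule and was not tested.

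**Figure D5:**
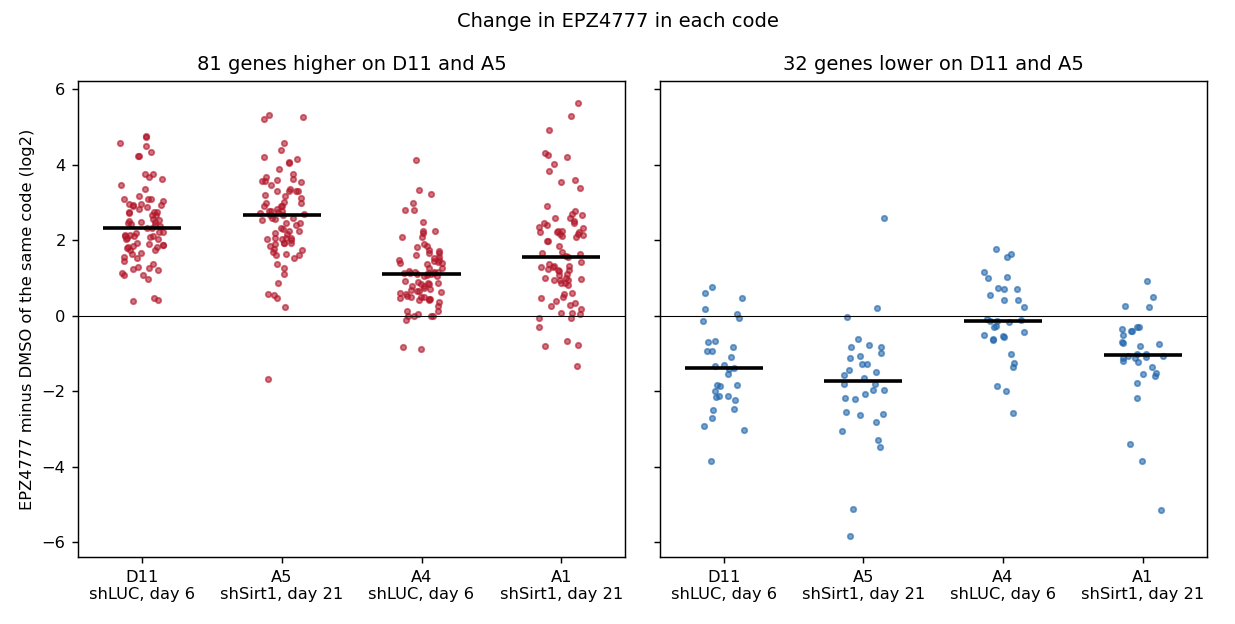
EPZ4777 minus DMSO of the same code in log2 intensity for the 81 genes higher (left) and the 32 genes lower (right) on D11 and A5, 1 point a gene, with the median as a bar; hairpin label and day are under each code. Medians of the 81 are 2.33 and 2.66 on D11 and A5, against 1.11 and 1.57 on A4 and A1.

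At the edge of the threshold, Ctse and Slfn1 were just inside with a smaller difference of 1.01 each, and Slco3a1, which rounds to 1.0, and Arrb2 with 0.99 just outside. Met and Tctex1d1 were just inside on the lower side, with -1.01 and -1.03, and P2rx3 and Ndrg2 just outside, with -0.99 and -0.98. Slfn1 was higher in both arms with 1 of its 2 probe sets and lower with the other. With probe sets averaged the mean difference of both arms was 0.71 for Ctse, 0.54 for Slfn1 and -0.68 for Met, in place of 1.08, 1.14 and -1.34. Among the upward genes 38 had several probe sets, and for 28 of these all had the same direction in both arms; of the 32 genes 21 had several, and for 15 all had it.

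The 10 genes most like the mean of Ltf and Mmp9 over the 8 arrays did not reach a difference of 1 in both arms. They were Paqr7, Mospd1, Reep3, Dnajc5, Rusc1, Clk2, L1cam, Ccdc88c, Mpzl3 and Rassf3, with Pearson correlations of 0.98 to 0.99. These correlations are a description over 8 arrays of which 4 chose the sides. Ppp1r42, Pglyrp1 and Reck (1.56 and 1.16) also rounded to 0.98 and did reach that difference. Paqr7, a membrane progesterone receptor, was at 8.97 on D11 and 9.14 on A5, against 8.45 on A4 and 8.40 on A1 in EPZ4777, and between 8.07 and 8.32 in DMSO. L1cam, a cell adhesion molecule, was at 6.84 and 7.08, against 6.06 and 6.01, and between 5.38 and 5.91 in DMSO. Both had the 2 strong arrays on top, with separations of 0.51 and 0.74 for Paqr7 and 0.79 and 1.07 for L1cam. With probe sets averaged the mean difference of both arms was 0.41 in place of 0.63 for Paqr7 and 0.49 in place of 0.93 for L1cam.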

How the data were processed

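RNA of 8 samples in 4 groups of 2 was measured on Affymetrix mouse arrays. The authors deposited 1 linear intensity per probe set, a summary by RMA (per the submitters' processing notes), with no version given in the sources used here. Of 45101 probe sets 64 were controls, 34945 had 1 gene symbol, 932 several and 9160 none in the platform annotation, and 18193 genes were kept, each by the probe set with the highest mean over 8 arrays. Values were taken to log2 with no filter. The sides were set by Ltf and Mmp9 and by code, and the sides, members and the 30 gene lists (576 of 639 genes measured) were chosen with earlier results of these data known.

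limma 3.58.1 in R 4.3.3 tested side in the 4 DMSO arrays (hairpin label as covariate, 1 residual degree of freedom) and EPZ4777 against DMSO over 4 group means (4 residual degrees of freedom), with Benjamini-Hochberg adjustment over all genes and a threshold of 0.05. The smallest p of an exact permutation of 2 and 2 arrays is 0.333. Python 3.11.15, pandas 2.3.3, numpy 2.4.6 and matplotlib 3.10.9 did the rest, and the limma steps were tested on simulated data.

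Whether the codes pair EPZ4777 and DMSO arrays was checked over genes: the differences between codes in EPZ4777 and in DMSO correlated at 0.293 for D11 and A4 and 0.378 for A5 and A1, against 0.401 between the arms in EPZ4777 and 0.04 in DMSO. With 2 pairs a group and no statement in the labels, the code was a replicate block in an alternative only (2925 genes called, against 1979).

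Genes named are fixed transcription and leukemia genes, the 15 per direction with the largest smaller difference, those at the threshold, up to 6 per list, those opposite in the arms, up to 10 passing a test and the 10 most like Ltf and Mmp9. Unnamed transcripts were counted only. Alternatives changed the probe set summary, dim genes, normalization, threshold, variance, block and arrays.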

Additional observations from a re-analysis of the deposited data

Results flagged for a closer look

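In EPZ4777 3 genes went past a difference of 1 in opposite directions in the hairpin arms. The difference between the arms was not tested, and the arms also differ in hairpin label and in time in EPZ4777. Car4, a membrane-bound carbonic anhydrase, was at 7.61 on D11 and 8.84 on A5, against 8.85 on A4 and 5.96 on A1, which is -1.24 for D11 minus A4 and 2.89 for A5 minus A1. Marcks, a substrate of protein kinase C, was at 8.24 and 5.52, against 6.99 and 7.89, which is 1.25 and -2.37. Satb1, a chromatin organizer, was at 6.96 and 5.27, against 5.49 and 8.60, which is 1.47 and -3.33. These values are from 1 probe set a gene. Of the 7 probe sets of Marcks 2 were lower in both arms, as was 1 of the 5 of Satb1. Of the 2 of Car4 0 had the same direction in both arms. A1 had the lowest Car4 and the highest Satb1 among the 4 arrays of each agent, with 5.92 and 5.59 in DMSO. For Marcks it was the highest in DMSO (6.29) and below D11 in EPZ4777.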

How the results depend on the processing

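Of the 81 genes higher and 32 lower on D11 and A5 in EPZ4777, 63 and 15 were shared when a gene's probe sets were averaged, which gave 67 and 16. Every probe set by itself gave 129 and 43, a threshold of 0.5 gave 374 and 210, and a threshold of 2 gave 9 and 1. Relative to DMSO of the same code, an alternative added after the data were seen, 34 and 24 passed, of which 26 and 12 were shared. Either arm alone gave 196 to 214 higher and 74 to 226 lower. Brightness, quantile normalization and centring gave 65 to 82 higher and 25 to 35 lower.

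In DMSO 0 genes were called, with 751 at an unadjusted p under 0.05, and 0 to 175 with 1 array left out. The upper end of that range came without A4 or without D11 in DMSO. With 1 DMSO array left out, the 3 that remain leave no spread of their own. The spread then comes from the 4 EPZ4777 arrays, which chose the sides, so nothing is read from the counts of those fits. EPZ4777 against DMSO called 1979 genes, 3358 probe sets taken singly, and 2 to 2588 genes with 1 array left out: 2 without D11 and 6 without A4 in DMSO, 408 without A5 and 461 without D11 in EPZ4777, and 872 without A1 or without A5 in DMSO. Rises and falls were 888 and 1091, against 962 and 793 after quantile normalization and 795 and 1445 after centring. With the code as a replicate block 2925 genes were called. The cause of these shifts was not tested. Of the named genes' differences 26 moved and 43 did not under averaged probe sets, and 4 and 65 under quantile normalization, with 0 reversed. Genes with 1 probe set, such as Ltf and Camp, cannot move when probe sets are averaged. They are among the 43, so that count does not measure how stable the differences are. Values at or below 4 are dim, and differences among them are not read here.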
